A study of Homo sapiens with 8 samples.

Results

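The genes described here make cholesterol and fatty acids or control their synthesis. They were 35 genes chosen by name, matched by Ensembl ID to symbol in all 8 count files, and all 35 were found among the 20453 gene IDs counted. The cholesterol arm held 18 enzymes that lead from acetyl-CoA units to cholesterol, the control group held 6 genes around the sterol regulatory element binding proteins (SREBPs), and the fatty acid arm held 11 enzymes that make, elongate, desaturate or esterify fatty acids. All 35 passed the filter on low counts in mRNA and in footprints.

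The libraries came from cells labelled THP-1, a human line from acute monocytic leukaemia, that carried by transduction either a mutated DNMT3A (genotype label "DNMT3A mutation") or wild-type DNMT3A (label "wt"). The DNMT3A enzyme adds new methyl groups to DNA, and its gene is often mutated in myeloid leukaemias. The mRNA was read by RNA-seq, and ribosome profiling read the fragments of 25 to 40 nucleotides that ribosomes protect from nuclease (footprints). There were 4 groups of 2 libraries: mutant mRNA, wild-type mRNA, mutant footprints and wild-type footprints. The labels name no agent or other treatment, and do not say whether replicates were separate cultures, so p-values reflect the spread among the sequenced libraries alone, possibly a technical one. The introduced DNMT3A cannot be told apart from the cells' own gene by gene counts.

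Synthesis of cholesterol and of fatty acids starts from acetyl-CoA in the cytosol. When sterols are low, SCAP carries the SREBP precursors from the endoplasmic reticulum to the Golgi, where proteases release their active fragment, and INSIG proteins hold SCAP back when sterols are high. SREBF2 encodes the SREBP that acts mainly on sterol genes, and SREBF1 encodes the forms that act mainly on fatty acid genes. Dividing blood cells need both lipids for membranes, and isoprenoids of the sterol pathway anchor small GTPases.

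Total counts were 3901659 to 4393445 in mutant and 3415999 to 4523475 in wild-type mRNA libraries, and 603360 to 944824 in mutant and 1611724 to 1988513 in wild-type footprint libraries. Values below are CPM, counts scaled to a common library size within each assay, and 3 counts stood for 0.671 to 0.885 CPM in mRNA and 1.54 to 4.89 CPM in footprints. The lowest count of any of the 35 genes was 8, for HSD17B7 in a mutant footprint library. DNMT3A mRNA stood at 240.5 and 244 CPM in mutant and at 291 and 294 CPM in wild-type libraries. Among 14 monocyte markers, S100A8, S100A9, FCN1, CD163 and IRF8 had no count in any library, and CD14, CSF1R and MNDA at most 3, which goes against the label THP-1, while 3 or 4 of the 14 reached 10 CPM in each library. LYZ, at 26.7 and 25.5 CPM in mutant and 23.6 and 22.2 CPM in wild-type mRNA, CD68, SPI1 and CD36 were among those detected. Erythroid and megakaryocyte markers summed to 1937 and 2015 CPM in mutant mRNA and to 2355 and 2414 CPM in wild-type mRNA (14 of 18 reached 10 CPM in each mutant and 16 in each wild-type mRNA library; PF4 had no count in any library). Monocyte markers summed to 98.1 and 102 CPM in mutant and 106 and 111 CPM in wild-type mRNA, and 6 epithelial markers to 915 and 912 CPM in mutant and 1164 and 1201 CPM in wild-type mRNA. Of these 6, CDH1 had no count in any library and CLDN4 at most 3, so the sums came from EPCAM, KRT8, KRT18 and KRT19. In footprints the erythroid and megakaryocyte list summed to 2066 and 2137 CPM in mutant and 2308 and 2323 CPM in wild-type libraries, the monocyte list to 189 and 182 CPM in mutant and 191 and 179.7 CPM in wild-type libraries, and the epithelial list to 686 and 673 CPM in mutant and 980.3 and 1045 CPM in wild-type libraries. The erythroid and epithelial sums were lower in mutant libraries, but their members did not all move the same way. Of the erythroid and megakaryocyte genes past the filter, 14 were lower and 3 higher in mutant mRNA, and 8 lower and 6 higher in footprints. Of the epithelial genes, 3 were lower and 1 higher in mRNA, and 4 were lower in footprints. The part of these genes in the results below was not tested.

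Promoters of 4 genes are shown because they represent the behaviours met below: SREBF2, whose 2 readouts lay on opposite sides of 0, INSIG1 and SCD, which fell in both readouts, and MSMO1, which rose in both. Each runs 5′ to 3′ from 250 bases before to 50 bases after the gene's start, from RefSeq (GRCh38.p14). Capitals mark CCAAT boxes (CCAAT on either strand) in all 4, the sterol element (TCACNCCAC with the base before it) in SREBF2 and the E-box TCACGTGA in INSIG1. The windows are chr22:41832855-41833154 (plus strand), chr7:155297628-155297927 (plus), chr10:100346983-100347282 (plus) and chr4:165327419-165327718 (plus), in the order printed.
SREBF2: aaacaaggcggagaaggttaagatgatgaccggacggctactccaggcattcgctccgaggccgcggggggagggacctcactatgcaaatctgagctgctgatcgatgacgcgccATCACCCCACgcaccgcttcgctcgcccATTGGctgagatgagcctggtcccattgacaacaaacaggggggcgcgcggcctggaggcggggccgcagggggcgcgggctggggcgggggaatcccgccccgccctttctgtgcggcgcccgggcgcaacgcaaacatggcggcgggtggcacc
INSIG1: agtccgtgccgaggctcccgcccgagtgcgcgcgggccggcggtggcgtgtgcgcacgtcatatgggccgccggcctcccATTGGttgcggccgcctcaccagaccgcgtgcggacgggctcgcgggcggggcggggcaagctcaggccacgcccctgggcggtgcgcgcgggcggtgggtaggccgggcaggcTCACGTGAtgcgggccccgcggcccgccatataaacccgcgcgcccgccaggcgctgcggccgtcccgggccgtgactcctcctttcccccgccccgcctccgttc
SCD: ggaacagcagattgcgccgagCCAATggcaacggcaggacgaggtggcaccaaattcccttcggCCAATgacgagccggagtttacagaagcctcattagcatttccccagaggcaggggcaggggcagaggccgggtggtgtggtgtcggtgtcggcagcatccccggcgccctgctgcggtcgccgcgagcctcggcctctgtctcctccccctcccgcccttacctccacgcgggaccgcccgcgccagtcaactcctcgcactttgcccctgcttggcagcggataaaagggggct
MSMO1: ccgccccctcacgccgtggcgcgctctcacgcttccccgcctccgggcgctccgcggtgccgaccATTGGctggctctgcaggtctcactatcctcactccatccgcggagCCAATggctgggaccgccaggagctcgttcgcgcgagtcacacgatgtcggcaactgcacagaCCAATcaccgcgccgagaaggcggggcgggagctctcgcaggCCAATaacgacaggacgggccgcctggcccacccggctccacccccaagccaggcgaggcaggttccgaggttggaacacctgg

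A RefSeq promoter was matched for 31 of the 35 genes; ACAT2, FDFT1, SQLE and FASN were not matched. All motifs were searched on both strands. The sterol element TCACNCCAC was in 1 of the 31, SREBF2, where it began 133 bases before the start, against 1.13% of all 35116 promoters. The E-box TCACGTGA, which reads the same on both strands, was in INSIG1 alone, 56 bases before the start, against 0.98% of all promoters and 2.48% of the 8844 matched genes tested in mRNA. That last share was 1.35% for the sterol element. CCAAT boxes, known to bind NF-Y, a partner of the SREBPs, were more widespread: 13 of 15 matched genes of the cholesterol arm, 3 of 6 control genes and 7 of 10 of the fatty acid arm held one, against 34.6% of all promoters and 43.9% of the matched tested genes. The GC box GGGCGG was in 29 of 31, against 79.1% of those tested genes and 45% of all promoters. These matches describe letters in a window and no binding was measured.

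The first comparison asked how the mRNA of these genes differed between mutant and wild-type cells. Of the 35, 12 fell in the mutant, 3 rose and 20 were not called (edgeR's quasi-likelihood test, Benjamini-Hochberg adjusted p under 0.05 over all 10756 genes tested). Over all genes tested 37.7% were called, 18.9% higher and 18.9% lower, so the share called among the 35, 42.9%, was near the background, with more of the calls on the lower side. The fatty acid arm had 5 lower and none higher of 11 (at an unadjusted p under 0.05, 6 lower and none higher; DESeq2 called 5 lower and none higher). The cholesterol arm was split, with 4 lower and 3 higher of 18, and the control group had 3 lower and none higher of 6 (at an unadjusted p under 0.05, 4 lower and none higher; DESeq2 called 1 lower and none higher). The share of all genes at an unadjusted p under 0.05 was not counted, so such counts, here and below, have no background beside them. Median log2 fold changes, mutant over wild type throughout, were -0.15 in the fatty acid arm, -0.14 in the control group and -0.05 in the cholesterol arm, beside -0.0022 over all genes tested. In bulk samples, fewer cells with a transcript and less transcript per cell cannot be told apart.

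**Figure D1:**
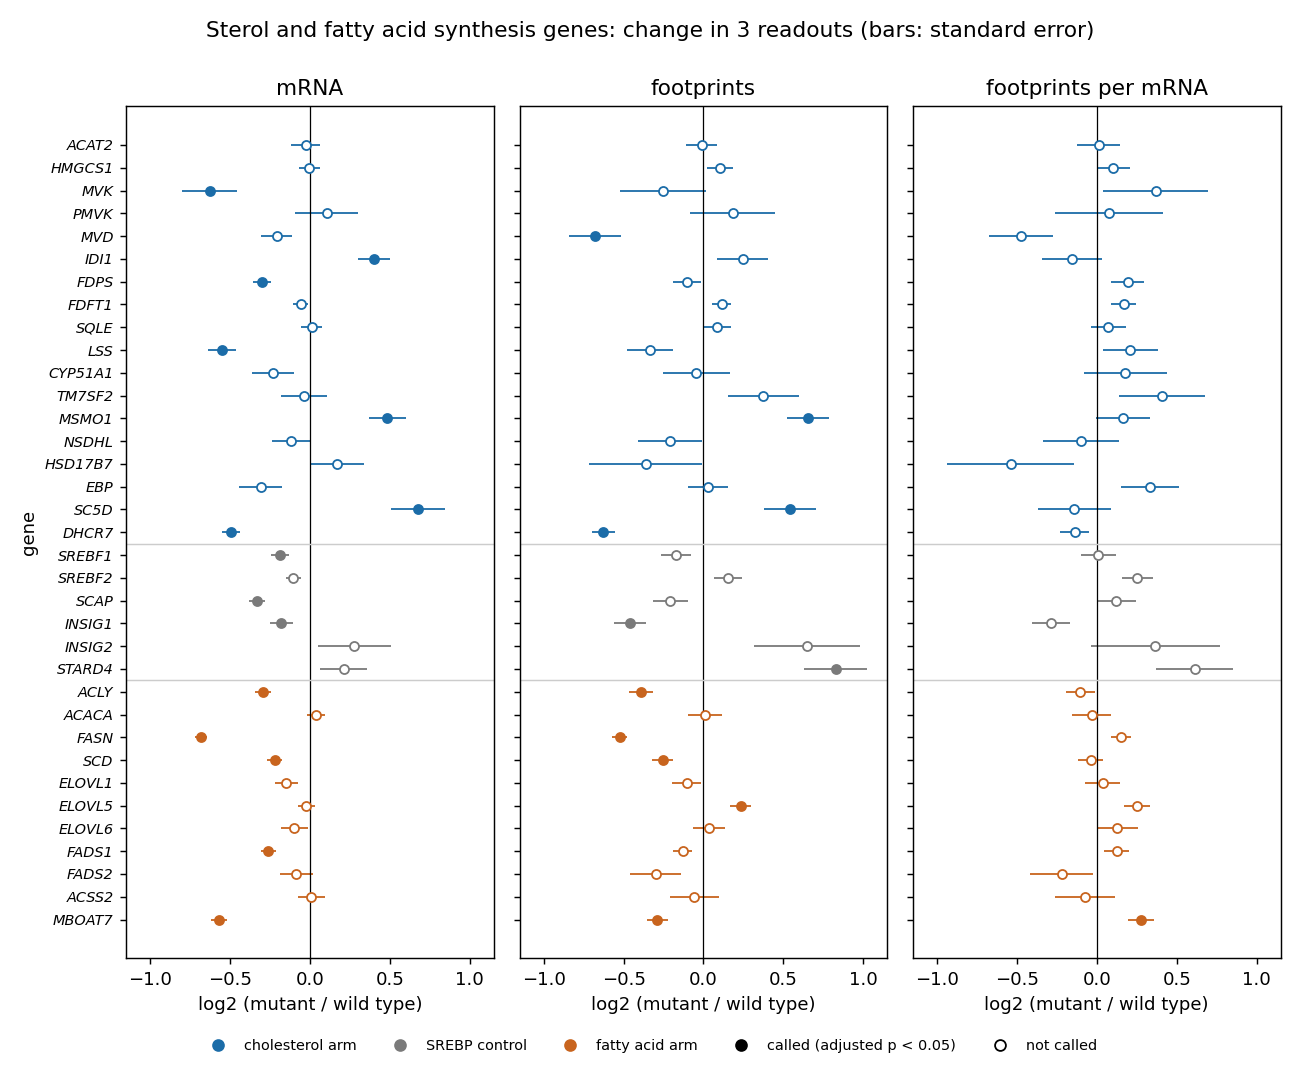
Log2 fold change of mutant over wild type (x axis) for each of the 35 genes (y axis) in mRNA, footprints and footprints per mRNA. Bars are approximate standard errors computed from the edgeR tests. Filled points passed an adjusted p of 0.05 and colours mark the 3 groups. FASN, MBOAT7 and DHCR7 lie left of 0 in mRNA and footprints, MSMO1 and SC5D lie right of 0 in both, and MBOAT7 alone is filled in the panel of footprints per mRNA.

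In the fatty acid arm, FASN, the synthase that builds palmitate, was counted most. Its mRNA stood at 1219 and 1291 CPM in mutant libraries, against 1978 and 2045 CPM in wild-type libraries, and its footprints at 1069 and 1116 CPM in mutant, against 1509 and 1621 CPM in wild type. Neither readout overlapped between genotypes, and both fell: by 0.68 in mRNA on the log2 scale (SE 0.036, edgeR adjusted p = 7.3e-77) and by 0.52 in footprints (SE 0.049, edgeR adjusted p = 2.3e-16). FASN (ENSG00000169710, chromosome 17, 82078338 to 82098236) lies in gene-dense DNA with 43 other protein-coding genes within 500 kb, and after removal of a trend of fold change with local gene density, described below, its mRNA change was -0.45 and its footprint change -0.37, both still called.

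The enzymes on either side of FASN moved as follows. ACLY, which makes cytosolic acetyl-CoA from citrate, had 325 and 341 mRNA CPM in mutant libraries and 416 and 402 CPM in wild-type libraries. Its footprints were 315 and 313 CPM in mutant and 419.6 and 406 CPM in wild type. ACLY fell in mRNA (log2 fold change -0.29, SE 0.048, edgeR adjusted p = 2.3e-08) and in footprints (-0.39, SE 0.076, edgeR adjusted p = 3.8e-05), with no overlap of genotypes. ACLY has 37 other protein-coding genes within 500 kb; the mRNA call ended once the density trend was removed (-0.09, edgeR adjusted p = 0.15), while the footprint change was then -0.25 (edgeR adjusted p = 0.016). ACACA, the carboxylase that makes malonyl-CoA for FASN, overlapped between genotypes, with 263 and 241 mRNA CPM in mutant and 256 and 237 CPM in wild type (log2 fold change 0.04, SE 0.055, edgeR adjusted p = 0.62), and its footprint change was 0.01 (SE 0.11). ACSS2, which activates acetate, overlapped in both readouts as well, with log2 fold changes of 0.01 (SE 0.084) in mRNA and -0.06 (SE 0.15) in footprints.

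Of the desaturases, SCD was called in both readouts, FADS1 in mRNA and FADS2 in neither, and no test compared them with each other. SCD, which introduces the first double bond into saturated acyl chains, had 377 and 379 mRNA CPM in mutant and 439 and 443 CPM in wild-type libraries. Its footprints were 483 and 556 CPM in mutant and 628 and 597 CPM in wild type. SCD fell in both, by 0.22 in mRNA (SE 0.047, edgeR adjusted p = 2.1e-05) and by 0.25 in footprints (SE 0.065, edgeR adjusted p = 0.002). The SCD footprint change was -0.14 without mutant footprint replicate 1 (edgeR adjusted p = 0.42). FADS1, a desaturase of polyunsaturated fatty acids, fell in mRNA with 366 and 372 CPM in mutant against 435 and 448 CPM in wild type (log2 fold change -0.26, SE 0.047, edgeR adjusted p = 4.6e-07). Its footprints overlapped, at 619 and 679 CPM in mutant and 677 and 729 CPM in wild type, and were not called (-0.13, SE 0.06, edgeR adjusted p = 0.11). The FADS1 mRNA change was -0.12 after removal of the density trend (edgeR adjusted p = 0.033). FADS2, its neighbour and the desaturase of the preceding step, was not called in either readout, with log2 fold changes of -0.09 (SE 0.1) in mRNA and -0.30 (SE 0.16) in footprints. The spans of FADS1 and FADS2 overlap on opposite strands, and the strand setting of the counting is not known, so their reads may be mixed.

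Among the elongases, ELOVL5, which lengthens polyunsaturated acyl chains, had higher footprints in the mutant with little difference in mRNA. Its footprints were 559.8 and 551 CPM in mutant and 474 and 472 CPM in wild type (log2 fold change 0.23, SE 0.065, edgeR adjusted p = 0.0049). Its mRNA was 285 and 282 CPM in mutant and 292 and 285 CPM in wild type (log2 fold change -0.02, SE 0.052, edgeR adjusted p = 0.77). The footprint call ended without mutant footprint replicate 1 (0.22, edgeR adjusted p = 0.2) or mutant footprint replicate 2 (0.24, edgeR adjusted p = 0.059). ELOVL1 and ELOVL6, which act on saturated chains, were not called: their log2 fold changes were -0.15 (SE 0.07) and -0.10 (SE 0.085) in mRNA, and -0.11 (SE 0.089) and 0.04 (SE 0.1) in footprints.

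MBOAT7, an acyltransferase that attaches arachidonate to lysophosphatidylinositol, had 242 and 268 mRNA CPM in mutant libraries and 379 and 377 CPM in wild-type libraries. Its footprints were 493 and 487 CPM in mutant and 606 and 595 CPM in wild type. Genotypes did not overlap in either readout, and MBOAT7 fell in both, by 0.57 in mRNA (SE 0.051, edgeR adjusted p = 2.6e-26) and by 0.29 in footprints (SE 0.065, edgeR adjusted p = 0.00035). The footprint call ended without mutant footprint replicate 1 (-0.30, edgeR adjusted p = 0.08) and once the density trend was removed (-0.15, edgeR adjusted p = 0.091). MBOAT7 (chromosome 19, 54173415 to 54189580) has 34 other protein-coding genes within 500 kb and overlaps TSEN34 on the opposite strand.

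**Figure D2:**
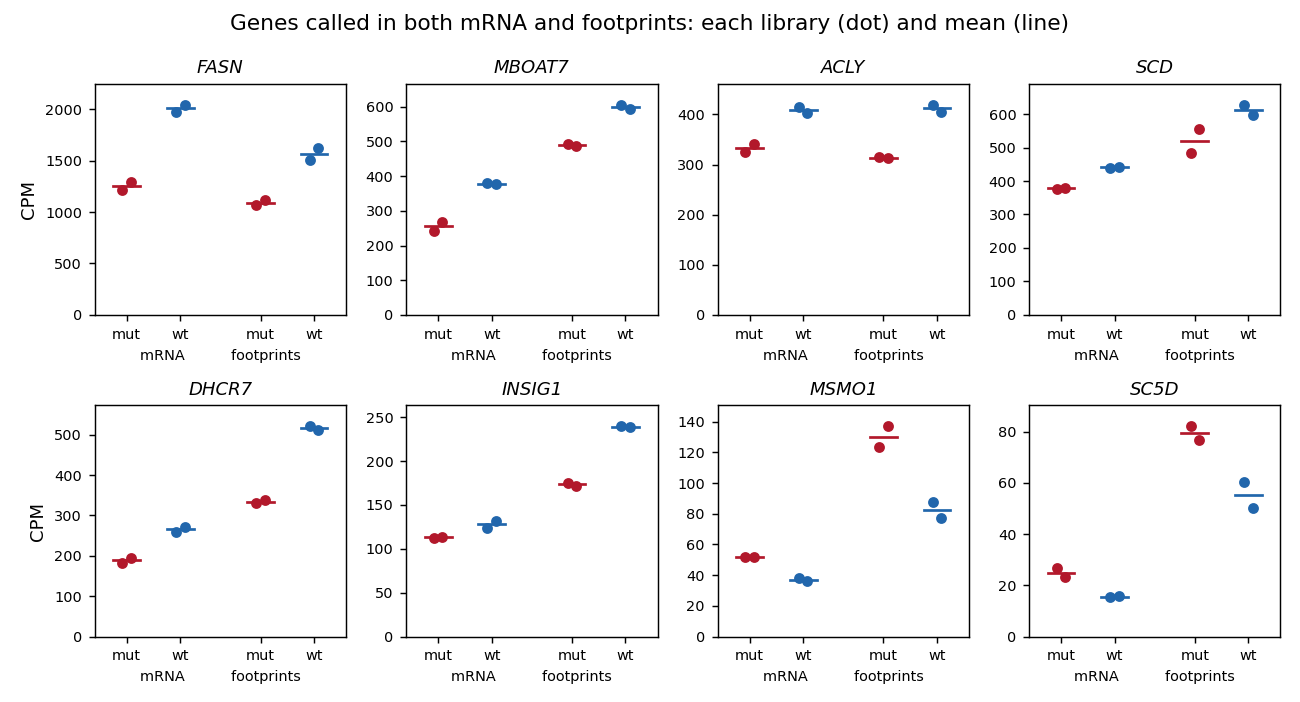
CPM (y axis, from 0) of the 8 genes called in both mRNA and footprints, in mutant (mut, red) and wild-type (wt, blue) libraries; dots are single libraries and lines the mean of 2. FASN, MBOAT7, ACLY, SCD, DHCR7 and INSIG1 are lower in mutant, MSMO1 and SC5D higher, and no panel has overlapping genotypes within a readout.

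The cholesterol arm opens with ACAT2, a thiolase, and HMGCS1, which makes HMG-CoA. HMGCS1 mRNA was 161 and 154 CPM in mutant and 159 and 158 CPM in wild type, and its footprints were 313 and 285 CPM in mutant and 289.8 and 273 CPM in wild type. Both readouts overlapped between genotypes (log2 fold changes -0.01, SE 0.065, and 0.10, SE 0.083). ACAT2 overlapped too (-0.03, SE 0.091, in mRNA and -0.01, SE 0.098, in footprints); its span is shared in part with TCP1 and SOD2, so its counts are uncertain.

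The middle steps turn mevalonate into farnesyl diphosphate. MVK, mevalonate kinase, was thinly counted and fell in mRNA, with 15.7 and 15.0 CPM in mutant against 23.9 and 23.7 CPM in wild type (log2 fold change -0.63, SE 0.17, edgeR adjusted p = 0.0013). Its footprints overlapped, at 19.7 and 24.4 CPM in mutant and 22.1 and 28.8 CPM in wild type. The MVK span overlaps MMAB on the other strand. PMVK, the next kinase, overlapped in both readouts, with log2 fold changes of 0.10 (SE 0.2) in mRNA and 0.18 (SE 0.27) in footprints. MVD, the decarboxylase that follows, had footprints of 51.9 and 71.7 CPM in mutant and 77.5 and 110.4 CPM in wild type, and mRNA of 53.7 and 62.6 CPM in mutant and 64.6 and 68.7 CPM in wild type. Mutant values were below wild type in both, but only footprints were called (-0.68, SE 0.16, edgeR adjusted p = 0.00095; mRNA -0.21, SE 0.097, edgeR adjusted p = 0.075). That footprint call rested on single libraries: it was -0.38 without wild-type footprint replicate 2 (edgeR adjusted p = 0.18) and -0.41 without mutant footprint replicate 1 (edgeR adjusted p = 0.42).

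IDI1, the isomerase of isopentenyl diphosphate, rose in mRNA. It had 69.8 and 62.9 CPM in mutant libraries and 49.3 and 51.5 CPM in wild-type libraries (log2 fold change 0.40, SE 0.1, edgeR adjusted p = 0.00048), and 0.26 after removal of the density trend (edgeR adjusted p = 0.036). IDI1 footprints overlapped between genotypes (0.25, SE 0.16). FDPS, which makes farnesyl diphosphate, fell in mRNA, with 202 and 212 CPM in mutant and 249.99 and 259 CPM in wild type (log2 fold change -0.30, SE 0.056, edgeR adjusted p = 1.1e-06). FDPS has 34 other protein-coding genes within 500 kb, and that call ended once the density trend was removed (-0.11, edgeR adjusted p = 0.12). Its footprints were not called (-0.10, SE 0.087). RefSeq names 10 pseudogenes after FDPS and 3 after IDI1, so reads of near-identical copies make both uncertain.

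Squalene synthesis and closure of the ring follow. FDFT1, squalene synthase, had log2 fold changes of -0.06 (SE 0.048) in mRNA and 0.11 (SE 0.061) in footprints, and SQLE, squalene epoxidase, of 0.01 (SE 0.065) and 0.09 (SE 0.087). Neither was called. LSS, which folds the epoxide into lanosterol, fell in mRNA, with 65.6 and 61.9 CPM in mutant against 91.8 and 94.9 CPM in wild type (log2 fold change -0.55, SE 0.088, edgeR adjusted p = 8.8e-09). LSS footprints were lower in both mutant libraries, at 69.6 and 96.1 CPM, than in wild type, at 101 CPM in each library, and missed the threshold (-0.34, SE 0.14, edgeR adjusted p = 0.082).

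Of the enzymes that turn lanosterol into cholesterol, a desaturase and an oxidase rose and the final reductase fell. MSMO1, the oxidase that starts removal of the methyl groups beside the hydroxyl, had 51.6 and 51.7 mRNA CPM in mutant and 38.1 and 36.0 CPM in wild type, and 124 and 137 footprint CPM in mutant and 87.6 and 77.0 CPM in wild type. It rose in mRNA (log2 fold change 0.48, SE 0.11, edgeR adjusted p = 0.00019) and in footprints (0.66, SE 0.13, edgeR adjusted p = 5.5e-05). SC5D, a sterol desaturase, had 26.7 and 23.2 mRNA CPM in mutant and 15.3 and 15.9 CPM in wild type, and 82.0 and 76.6 footprint CPM in mutant and 60.5 and 50.3 CPM in wild type. It rose in mRNA (0.68, SE 0.17, edgeR adjusted p = 0.0004) and in footprints (0.54, SE 0.16, edgeR adjusted p = 0.0088). The SC5D footprint call ended without wild-type footprint replicate 2 (0.40, edgeR adjusted p = 0.15), mutant footprint replicate 1 (0.48, adjusted p = 0.27) or mutant footprint replicate 2 (0.58, adjusted p = 0.063), and once the density trend was removed (0.39, adjusted p = 0.079).

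DHCR7, the reductase of the last step, went the other way. Its mRNA was 183 and 195 CPM in mutant and 259 and 271 CPM in wild type, and its footprints were 331 and 337 CPM in mutant and 520.4 and 512 CPM in wild type. It fell by 0.49 in mRNA (SE 0.057, edgeR adjusted p = 3.8e-16) and by 0.63 in footprints (SE 0.073, edgeR adjusted p = 6.6e-12). DHCR7 (ENSG00000172893, chromosome 11, 71427287 to 71449043) has 9 other protein-coding genes within 500 kb, and the changes were -0.60 and -0.70 after removal of the density trend. CYP51A1, TM7SF2, NSDHL, HSD17B7 and EBP, which remove methyl groups, reduce or shift double bonds between lanosterol and the last step, were not called in either readout, with log2 fold changes from -0.31 to 0.17 in mRNA and from -0.36 to 0.37 in footprints. Their counts were low (10.4 to 44.7 footprint CPM outside EBP in mutant libraries), with standard errors of up to 0.35. RefSeq names 3 pseudogenes after CYP51A1 and 2 after HSD17B7.

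Among the control genes, SREBF1 mRNA was 197 and 228 CPM in mutant and 241 CPM in each wild-type library, and its footprints were 207 and 225 CPM in mutant and 235 and 246 CPM in wild type. It fell in mRNA (log2 fold change -0.19, SE 0.056, edgeR adjusted p = 0.0039), but the call ended without mutant mRNA replicate 1 (-0.08, adjusted p = 0.38) or wild-type mRNA replicate 2 (-0.18, adjusted p = 0.086) and once the density trend was removed (-0.12, adjusted p = 0.11); without mutant mRNA replicate 2 it was -0.29. SCAP, the escort of the SREBPs, fell in mRNA, with 279.5 and 278 CPM in mutant against 343 and 359 CPM in wild type (-0.33, SE 0.05, edgeR adjusted p = 1.2e-09). SCAP footprints were 140.2 and 149.9 CPM in mutant and 166 CPM in each wild-type library, which was not called (-0.21, SE 0.11, edgeR adjusted p = 0.18).

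SREBF2 was not called in either readout, and its readouts lay on opposite sides of 0. SREBF2 mRNA was 429 and 426 CPM in mutant and 471 and 450.1 CPM in wild type (log2 fold change -0.10, SE 0.046, edgeR adjusted p = 0.056). Its footprints were 289 and 272 CPM in mutant and 258 and 250.1 CPM in wild type (0.15, SE 0.085, edgeR adjusted p = 0.2). Genotypes did not overlap in either, which carries little weight with 2 libraries per group. The difference between the readouts was 0.25 (SE 0.096, edgeR interaction adjusted p = 0.13). With the density trend removed the mRNA value was 0.03 and the footprint value 0.25, which then passed (edgeR adjusted p = 0.03).

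INSIG1, which retains SCAP in the endoplasmic reticulum and is itself an SREBP target, fell in both readouts. Its mRNA was 112 and 114 CPM in mutant and 124 and 132 CPM in wild type, and its footprints were 176 and 171 CPM in mutant and 239 CPM in each wild-type library. The footprint change was -0.46 (SE 0.098, edgeR adjusted p = 0.00016), with an adjusted p of 0.067 without mutant footprint replicate 1 (-0.48). The mRNA change was -0.18 (SE 0.072, edgeR adjusted p = 0.037). This mRNA call ended with each mRNA library left out: -0.22 (adjusted p = 0.056) and -0.12 (0.39) without wild-type replicate 1 and 2, and -0.17 (0.14) and -0.18 (0.066) without mutant replicate 1 and 2. With the density trend removed the INSIG1 mRNA change was -0.34 (edgeR adjusted p = 3.2e-05) and the footprint change -0.59.

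STARD4, a carrier that moves sterol between membranes, had footprints of 57.1 and 53.8 CPM in mutant and 31.5 and 31.3 CPM in wild type, and mRNA of 28.5 and 29.53 CPM in mutant and 23.9 and 26.0 CPM in wild type. Footprints rose (log2 fold change 0.83, SE 0.2, edgeR adjusted p = 0.00083), the largest footprint change among the 35 genes, while mRNA was not called (0.21, SE 0.14, edgeR adjusted p = 0.25). The footprint call ended without mutant footprint replicate 1 (0.77, adjusted p = 0.12). INSIG2, the paralogue of INSIG1, had the fewest mRNA counts, with 12.3 and 10.7 CPM in mutant and 9.44 and 9.62 CPM in wild type (0.28, SE 0.23), and its footprint change was 0.65 (SE 0.33, edgeR adjusted p = 0.16).

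In footprints as a whole, 7 of the 35 genes fell, 4 rose and 24 were not called, where 21.2% of the 9181 genes tested were called, 10.9% lower and 10.3% higher. By group, 4 fell and 1 rose of 11 in the fatty acid arm, 2 fell and 2 rose of 18 in the cholesterol arm, and 1 fell and 1 rose of 6 control genes. Medians were -0.13, 0.01 and -0.01, beside 0.01 over all genes tested. Of the 12 genes lower in mRNA, 6 were also lower in footprints (50% of the mRNA calls and 85.7% of the 7 footprint calls), and of the 3 higher in mRNA, 2 were higher in footprints (66.7% and 50%). The same shares over all genes were not counted, so this overlap cannot be read as particular to the 35. Without mutant footprint replicate 1, 3 of the 11 footprint calls were left: DHCR7, FASN and MSMO1.

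Summed over its members, the fatty acid arm took 3412 and 3514 CPM in mutant mRNA, against 4555 and 4594 CPM in wild-type mRNA. In footprints its sum was 4266 and 4475 CPM in mutant and 5111 and 5178 CPM in wild type. Without FASN the mRNA sums were 2193 and 2223 CPM in mutant and 2578 and 2549 CPM in wild type, so the sums did not overlap with or without it. The cholesterol arm summed to 1591 and 1570 CPM in mutant and 1730 and 1751 CPM in wild-type mRNA. Its footprints summed to 2750.1 and 2726 CPM in mutant and 2847 and 2813 CPM in wild type. The control group summed to 1058 and 1087 CPM in mutant and 1212 and 1218 CPM in wild-type mRNA. Its footprints summed to 888 and 886 CPM in mutant and 942 and 943 CPM in wild type. The sums of these groups did not overlap between genotypes in either readout, as in the fatty acid arm.

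Calls depended on the spread assumed between replicates. The common biological coefficient of variation was 2.25% in mRNA and 1.92% in footprints. With an assumed coefficient of 10%, 4 of the 35 genes were called in mRNA, LSS, DHCR7, FASN and MBOAT7, all lower, against 2.91% of all genes called and 1.26% called lower. In footprints 4 were called, DHCR7 and FASN lower and MSMO1 and STARD4 higher, against 3.14% of all genes called, 1.79% lower and 1.35% higher. DESeq2, which estimates its own spread, called 10 of the 35 in mRNA, 9 lower and 1 higher, against 20.2% of the genes it gave an adjusted p, 10.9% lower and 9.28% higher. In footprints it called 6, 5 lower and 1 higher, against 9.55%, 6.25% lower and 3.31% higher.

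The mRNA changes ran with local gene density across the genome. Over all genes tested, the median log2 fold change in mRNA was 0.18 for 1473 genes with 0 to 4 other protein-coding genes within 500 kb and -0.25 for 707 genes with 40 or more. Members of the fatty acid arm had a median of 18 such neighbours and those of the cholesterol arm 11.5, beside 12 over the 10623 genes tested in mRNA that had coordinates. FASN, ACLY and MBOAT7 lie in gene-dense DNA, and SC5D, MSMO1 and IDI1 in gene-poor DNA with 4 to 8 neighbours. Other members did not follow the trend. INSIG1 and DHCR7, with 5 and 9 neighbours, were called lower in mRNA, and TM7SF2 and PMVK, with 40 and 36, were not called (-0.04 and 0.10). With this trend removed, 12 of the 35 genes were called in mRNA, 9 lower and 3 higher, and all 12 had been called before, against 27.1% of all genes, 13.6% lower and 13.5% higher. In footprints 10 were then called, 6 lower and 4 higher, against 17.1% of all genes, 9.08% lower and 7.98% higher; SREBF2 was added, and SC5D and MBOAT7 ended. In footprints per mRNA, described below, 1 was then called, ELOVL5, against 3.99% of all genes, 2.52% lower and 1.47% higher. The 3 mRNA calls that ended were FDPS, SREBF1 and ACLY. The cause of the trend was not tested.

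**Figure D3:**
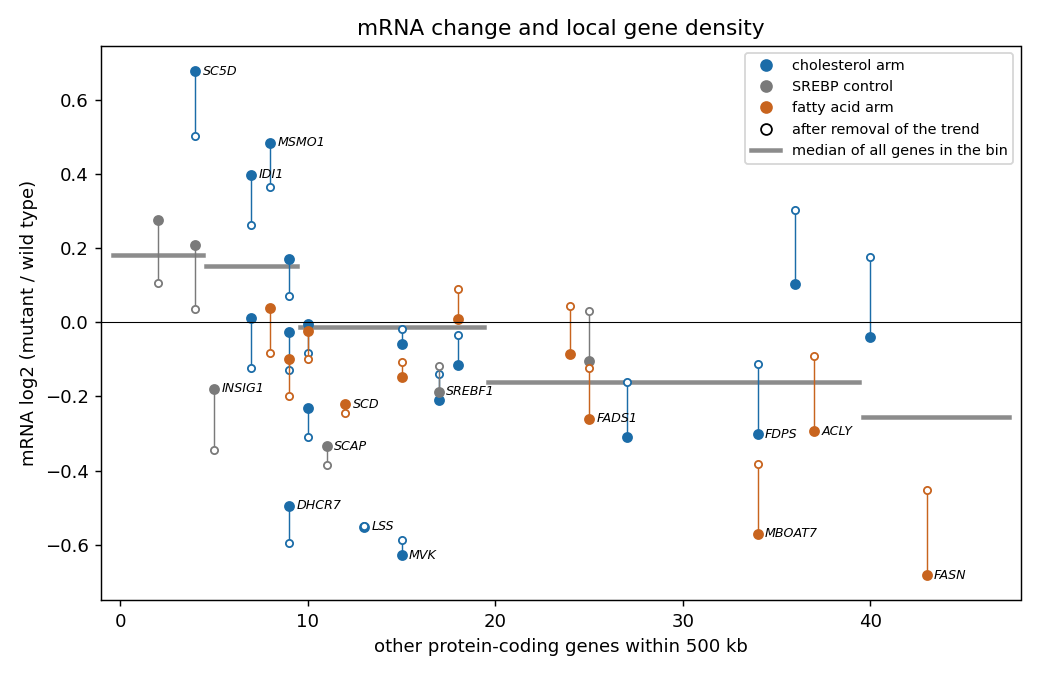
Log2 mRNA fold change of mutant over wild type (y axis) against the number of other protein-coding genes within 500 kb (x axis) for the 35 genes; filled points are the fitted values, open points the values after removal of the trend, labels mark the called genes and grey bars the median of all genes tested in 5 bins, the last of which reaches beyond the axis. The grey bars step from 0.18 at the left to -0.25 at the right, FASN is at -0.68 as fitted and at -0.45 without the trend, and DHCR7 at -0.49 and -0.60.

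Footprints per mRNA, the ratio of footprint CPM to the mean mRNA CPM of the same genotype, were compared last. The ratio describes how densely ribosomes occupy a transcript relative to others, but it also depends on which part of each gene was counted, which is not known here. In wild type, 17 of 18 genes of the cholesterol arm were above the median of the 9166 genes tested, and the arm's median ratio was 1.51 in mutant and 1.47 in wild type, beside 1.01 and 1.02 over all genes. SC5D had ratios of 3.29 and 3.07 in mutant and 3.87 and 3.22 in wild type, and EBP, a sterol isomerase, 3.91 and 4.26 in mutant and 2.85 and 3.52 in wild type. They were the 2 highest of the 35 in both genotypes and overlapped each other in wild type. ACAT2 followed, with 2.68 and 3.13 in mutant and 2.85 and 2.75 in wild type.

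At the low end stood SCAP, with 0.503 and 0.537 in mutant and 0.474 in each wild-type library, and SREBF2, with 0.676 and 0.637 in mutant and 0.56 and 0.543 in wild type. HSD17B7 and ACACA were below 1 in every library as well. SREBF1, with 0.972 and 1.06 in mutant and 0.974 and 1.02 in wild type, lay near the median of all genes. FASN, at 0.852 and 0.889 in mutant and 0.75 and 0.806 in wild type, lay below it in each library. The elongases ELOVL1, ELOVL5 and ELOVL6 lay above it, from 1.64 to 2.46 in single libraries.

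**Figure D4:**
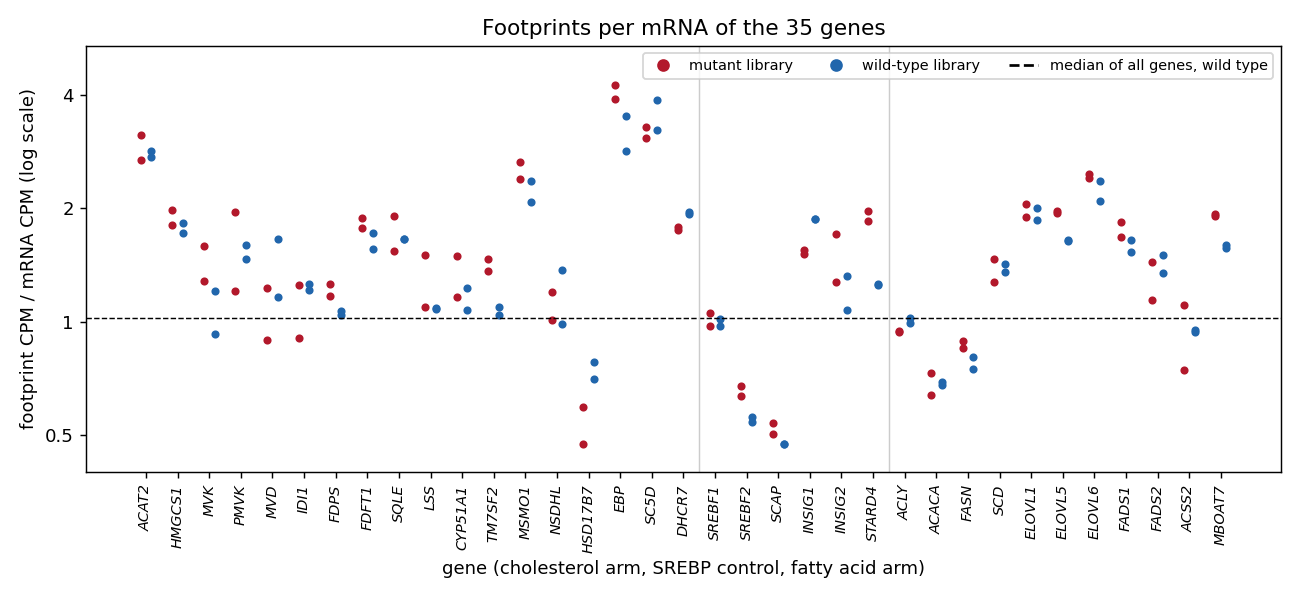
Footprint CPM divided by the mean mRNA CPM of the same genotype (y axis, log scale) for each of the 35 genes (x axis), in 2 mutant libraries (red) and 2 wild-type libraries (blue); the dashed line is the wild-type median of all genes tested, 1.02. EBP and SC5D stand highest, SCAP and SREBF2 are among the lowest, and the 2 mutant points of MBOAT7 (1.93 and 1.91) lie above its wild-type points (1.6 and 1.57).

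The test of the difference between readouts called 1 of the 35 genes, where 4.16% of all genes tested were called, 2.49% lower and 1.67% higher. MBOAT7 mRNA fell more than its footprints, so that footprints per mRNA rose by a log2 fold change of 0.28 (SE 0.083, edgeR interaction adjusted p = 0.039), with ratios of 1.93 and 1.91 in mutant and 1.6 and 1.57 in wild type. This call ended in 6 of 8 fits with a library left out, the exceptions being those without mutant mRNA replicate 2 or wild-type footprint replicate 1, with values from 0.20 to 0.28 and adjusted p up to 0.28 among the 6, and it ended once the density trend was removed (0.22, adjusted p = 0.12). In the cholesterol arm and the control group edgeR called none of 18 and none of 6 (2 and 3 at an unadjusted p under 0.05; DESeq2 called none of either, against 3.31% of the genes it gave an adjusted p, 2.14% lower and 1.17% higher). DESeq2 gave no adjusted p for 8 of the 18 and 2 of the 6. STARD4 had the largest difference between readouts, 0.61 (SE 0.24, edgeR interaction adjusted p = 0.15). HSD17B7 lay furthest on the other side, at -0.54 (SE 0.4, adjusted p = 0.52), with 10 and 8 footprint counts in mutant libraries. MVD, at -0.47 (SE 0.2, adjusted p = 0.19), and INSIG1, at -0.29 (SE 0.12, adjusted p = 0.18), followed. The interaction value of ELOVL5 was 0.25 (SE 0.081, adjusted p = 0.059), and 0.27 with the density trend removed, where it passed (adjusted p = 0.034). MVD passed without wild-type footprint replicate 1 (-0.69, adjusted p = 0.022).

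Other genes of sterol and fatty acid metabolism were counted from lists chosen with earlier results known. Of 12 measured genes of cholesterol uptake, export, storage and sensing, 6 fell in mRNA, none rose and 6 were not called (edgeR; 8 lower and none higher at an unadjusted p under 0.05; DESeq2 called 3 lower), with a median of -0.24. That is 50% called, against 37.7% of all genes called and 18.9% called lower, and each of the 6 calls ended where the coefficient of variation was set to 10%. At the unadjusted p the share over all genes was not counted. The 6 included GRAMD1A, which carries sterol from the plasma membrane (-0.41, edgeR adjusted p = 8.3e-11), the HDL receptor SCARB1 (-0.27, adjusted p = 0.00016) and the oxysterol receptor NR1H2 (-0.36, adjusted p = 0.00023). None of the 12 was called in footprints (edgeR; 5 at an unadjusted p under 0.05, all lower; DESeq2 called none), where the median was -0.15 and 21.2% of all genes were called. DESeq2 gave no adjusted p for 6 of the 12 in footprints, so it could not call those. In footprints per mRNA NPC1, which exports cholesterol from lysosomes, was called higher (0.37, edgeR interaction adjusted p = 0.049). It was 1 of 12 (8.33%, against 4.16% of all genes), and the call ended with the coefficient of variation set to 10%. DESeq2 called none of the 12 and gave no adjusted p for 4 of them.

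Genes that process the SREBPs or degrade sterol enzymes were split in mRNA, with 2 of 12 higher and 2 lower (33.3%, against 37.7% of all genes). RNF139 rose by 0.34 on the log2 scale (edgeR adjusted p = 0.00017) and ERLIN1 by 0.56 (adjusted p = 0.0018). Among these 12 edgeR called none in footprints, against 21.2% of all genes (1 at an unadjusted p under 0.05, and DESeq2 called none). In footprints per mRNA edgeR also called none, against 4.16% of all genes (2 at an unadjusted p under 0.05, and DESeq2 called none). Of the 12, DESeq2 gave no adjusted p for 4 in footprints and 6 in footprints per mRNA. Of 13 genes that use isoprenoids, 2 rose and 1 fell in mRNA (23.1%, below the 37.7% of all genes). FNTA, a subunit of the farnesyl and geranylgeranyl transferases, rose by 0.53 (edgeR adjusted p = 4e-06) and RABGGTB, a subunit of the Rab prenyltransferase, by 0.37, while the CAAX protease gene RCE1 fell (-0.64, adjusted p = 2.3e-06). FNTA and RABGGTB rose in footprints as well (0.80 and 0.36), 2 of 12 measured or 16.7%, below the 21.2% of all genes. Among 23 genes of acyl chain elongation, activation and esterification 7 fell and 2 rose in mRNA (39.1%, near the 37.7% of all genes), with AGPAT1, an acyltransferase of phosphatidic acid synthesis, at -0.38, the reductase TECR at -0.42 and the citrate carrier SLC25A1, which supplies ACLY, at -0.24. Of 20 measured in footprints 2 fell, TECR (-0.36) and SLC25A1 (-0.21), and 2 rose (20%, near the 21.2% of all genes).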

How the data were processed

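Each library's deposited file held raw counts for each Ensembl gene ID, with no normalization by the authors. Tools named, per the submitters' processing notes, are featureCounts, STAR, Bowtie2, Trimmomatic and cutadapt, with the builds GRCh38 and hg38. Their roles and versions, the strand setting, the counted feature and the treatment of multiply mapped reads were not given in the sources used here. Of 20453 gene IDs, 20407 matched a symbol. The 35 genes and all lists were chosen with earlier results of these data known.

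Tests used edgeR 4.0.16 under R 4.3.3 (glmQLFit with legacy set to FALSE, glmQLFTest), with TMM factors computed per assay and filterByExpr as the filter, mutant over wild type, on the 4 libraries of each assay. Footprints per mRNA were the interaction of genotype and assay over 8 libraries. P-values were Benjamini-Hochberg adjusted over all genes tested, and a gene was called under 0.05. The edgeR test gives no standard error. Each SE is the absolute log2 fold change divided by the square root of the test's F statistic, and so approximate. CPM used total counts times TMM factors; the floor was 3 counts. Each of the 35 genes is accounted for, with library values for those called and for SREBF1, SREBF2, SCAP and INSIG1; HMGCS1, ACACA and INSIG2 were added after their values were seen. Of each other list up to 3 called genes with the smallest p are named, except 1 that is not reported here. Local gene density was the number of other protein-coding RefSeq genes within 500 kb (GRCh38.p14), and its trend was removed by loess (span 0.3) as an offset. Alternatives were RLE factors, no filter, DESeq2 1.42.0, an assumed coefficient of variation of 10%, a replicate block and each library left out. Depth limits precision in the mutant footprint libraries most, and floors cover counting error only, since reads that carry no molecular identifier need not be separate molecules.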

Additional observations from a re-analysis of the deposited data

Results flagged for a closer look

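The genotype change of MBOAT7 differed between mRNA and footprints by an interaction test: footprints per mRNA had a log2 fold change of 0.28 (SE 0.083, edgeR adjusted p = 0.039), with both mutant ratios above both wild-type ratios. The mRNA change was -0.57 and the footprint change -0.29. Over that result's alternatives the value ran between 0.20 and 0.35 and adjusted p between 0.0053 and 1, and the MBOAT7 reads may include those of TSEN34, which overlaps it on the other strand; the part of these reads was not tested.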

How the results depend on the processing

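No direction of a called gene among the 35 turned under any alternative run. RLE factors changed no call among the 35 genes. With DESeq2, 1458 genes were called for mRNA, 384 for footprints and 127 in footprints per mRNA, with 10, 6 and 0 among the 35 (4 of the 35 at an unadjusted p under 0.05 in footprints per mRNA); DESeq2 gave no adjusted p for 5, 8 and 11 of them. An assumed coefficient of variation of 10% left 313, 288 and 13 genes, with 4, 4 and 0 of the 35 (0 of the 35 at an unadjusted p under 0.05 in footprints per mRNA). Without the filter on low counts 0 of the 35 were called in footprints per mRNA (7 at an unadjusted p under 0.05). With a library left out, counts ran from 2280 to 3838 genes for mRNA, 274 to 1799 in footprints and 142 to 448 in footprints per mRNA, and from 13 to 15, 3 to 13 and 0 to 2 of the 35. The lowest footprint counts, 274 genes and 3 of the 35, came without mutant footprint replicate 1, which left the shallowest library, at 603360 counts, alone in its group; a lone library was assumed to vary like the others. Other libraries whose absence cut a count of genes by over 1.5 times were wild-type mRNA replicate 2 (2280) and mutant mRNA replicate 1 (2653) for mRNA, wild-type footprint replicate 2 (1155) and mutant footprint replicate 2 (950) for footprints, and mutant footprint replicates 1 (142) and 2 (229) for footprints per mRNA.

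Replicate numbers are shared between genotypes, but nothing in the labels ties them to a shared culture or day. Deviations of replicate 1 from the group mean correlated between genotypes at 0.0916 across 7009 genes in mRNA and 0.141 across 3071 genes in footprints. With the replicate block 4168 genes were called for mRNA, 2076 for footprints and 508 for footprints per mRNA, with 17, 11 and 3 of the 35. SREBF2 (-0.11, edgeR adjusted p = 0.021) and ELOVL1 (-0.15, adjusted p = 0.048) were added for mRNA. The 3 were MBOAT7, FASN (0.16, adjusted p = 0.038) and ELOVL5 (0.25, adjusted p = 0.027).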

Other observations

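Fatty acid breakdown and the separate synthesis pathway of mitochondria were also read. Of 18 genes of fatty acid oxidation 5 rose and 2 fell in mRNA (38.9%, near the 37.7% of all genes). ACADM, the dehydrogenase of medium-chain acyl-CoA, rose by a log2 fold change of 0.58 (SE 0.084, edgeR adjusted p = 2.4e-10), ETFA, an electron carrier subunit, by 0.29 (adjusted p = 4.4e-05) and DECR1, a reductase for unsaturated chains, by 0.33 (adjusted p = 0.00038). In footprints ETFA rose (0.40, adjusted p = 4.1e-05) and HADHA, a subunit of the trifunctional protein, fell (-0.23, adjusted p = 0.0084) of 17 measured (11.8%, below the 21.2% of all genes). Footprints per ACADM mRNA fell (-0.49, edgeR interaction adjusted p = 0.034), the 1 call among 17 measured (5.88%, against 4.16% of all genes). That call ended with the density trend removed and with the coefficient of variation set to 10%. DESeq2 called none of the 17 and gave no adjusted p for 4 of them.

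Of 9 genes of mitochondrial fatty acid synthesis 4 rose in mRNA and none fell (edgeR; 4 higher and 1 lower at an unadjusted p under 0.05; DESeq2 called none). That is 44.4% called, against 37.7% of all genes called and 18.9% called higher; 2 of 9 were called with the density trend removed, and each call ended where the coefficient of variation was set to 10%. DESeq2 gave no adjusted p for 3 of the 9. The 4 included CBR4 (0.52, edgeR adjusted p = 0.00034), the lipoic acid synthase LIAS (0.49, adjusted p = 0.0034) and OXSM (0.45, adjusted p = 0.012). In footprints 2 of 8 were called (25%, against 21.2% of all genes). NDUFAB1, the acyl carrier protein, fell (-0.53, SE 0.067, edgeR adjusted p = 2.6e-10), and so did its footprints per mRNA (-0.40, edgeR interaction adjusted p = 0.0014). The latter was the 1 call among 8 genes (12.5%, against 4.16% of all genes), and it ended with the coefficient of variation set to 10%. LIPT1 was called higher in footprints (1.24, SE 0.47, edgeR adjusted p = 0.044), but on few counts. These were 9 and 7 in mutant and 7 and 8 in wild-type libraries before scaling for depth. No gene of this list was called higher in footprints with the density trend removed or with the coefficient of variation set to 10%.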
